A study of Homo sapiens with 4 samples.

Results

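A set of 10 genes that write, copy, read or remove DNA methylation was followed through a knockdown of MYCN in neuroblastoma cells. The rule that chose them used their symbols, with earlier results of these data known, and took the DNA methyltransferases DNMT1, DNMT3A and DNMT3B, the maintenance cofactor UHRF1 and its relative UHRF2, the dioxygenases TET1, TET2 and TET3, the methyl-CpG reader MBD2 and the DNA glycosylase TDG. All 10 were found among the 26364 genes listed in each sample, and all 10 passed the filter on low values.

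DNA methylation is written on cytosines of CpG dinucleotides. DNMT3A and DNMT3B add it to unmethylated sites, whereas DNMT1, guided by UHRF1 to the hemimethylated DNA that replication leaves behind, copies it onto the new strand. TET enzymes oxidise 5-methylcytosine stepwise, TDG cuts out the most oxidised forms, and base excision repair then restores a plain cytosine.

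RNA-seq was carried out on BE(2)C, a human neuroblastoma cell line with MYCN amplification, to examine gene expression with and without knockdown of MYCN. The control (Ctrl, 2 samples, labelled wild type) was a siRNA without a target, and the knockdown (MYCN KD, 2 samples) was a siRNA directed at MYCN. Both groups were exposed to the siRNA at 80 nM with a lipid reagent for 6 h according to the labels, and total RNA was taken on the next day. One line, 1 targeting siRNA and 1 time point were used, and the groups were otherwise grown in the same serum-supplemented medium. The study's methods call the replicates biological, but neither they nor the labels say whether these were separate cultures. The p-values therefore measure only the spread between these samples, and how much of it is technical is not stated.

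Values are RPKM, reads scaled by gene length and by the total of reads, which allows levels of different genes to be set side by side. The totals of reads behind the samples, recovered from the RPKM steps, lay between 29055819 and 34142988. Differences were tested on log2(RPKM + 1) with limma over 11411 genes whose RPKM averaged 1 or more, and a gene was called at an adjusted p under 0.05. This scale understates the change of genes with low RPKM. On simulated data more unchanged genes were called than the threshold allows. Those data had few changed genes and independent noise, unlike the data here, so any excess here is not known. Adjusted p-values near 0.05 are therefore to be read with caution. MYCN itself was at 1067.89 and 1073.05 RPKM in the controls and at 720.2 and 718.0 RPKM after knockdown, a log2 change of -0.57 ± 0.029 (SE, adjusted p = 0.00361, limma), so the target was reduced but remained abundant. Of 10 markers of sympathetic neuroblasts, 10 were measured above the filter, with a summed level of 3256 to 3569 RPKM in Ctrl and 4504 to 4935 RPKM in MYCN KD. Among markers of other cell types, PTPRC of blood cells stayed at or below 0.00464 RPKM, HBB was listed at 0, and SOX10 of Schwann cells reached 0.0722 RPKM at most. The summed level of 8 fibroblast markers, was 233 to 239 RPKM in Ctrl and 277 to 284 RPKM in MYCN KD, and 4 of the 5 tested rose: THY1, which made up most of the sum, PDGFRB, COL1A1 (0.726 and 0.739 against 1.78 and 1.74 RPKM, log2 change 0.67, adjusted p = 0.00365, limma) and DCN (4.58 and 5.52 against 9.33 and 7.78 RPKM, log2 change 0.66, adjusted p = 0.0269, limma). COL1A2 was at most 0.0254 RPKM. Summed levels of 5 Schwann cell markers were 5.59 to 5.92 and 9.90 to 10.5 RPKM, those of 5 endothelial markers 0.291 to 0.373 and 0.522 to 0.658 RPKM, and those of 6 blood cell markers 1.58 to 1.80 and 1.57 to 1.77 RPKM, in Ctrl and MYCN KD respectively. The part of these marker levels in the results was not tested.

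Of the 10 genes, 5 fell in MYCN KD, 1 rose and 4 did not pass the test. TDG fell by the most, DNMT1, TET3, UHRF1 and MBD2 fell by less, and DNMT3A rose. The share of all tested genes called lower was 22.8% and the share called higher 25.3%. The median log2 change of the 10 genes was -0.26, against 0.03 for all tested genes. Both MYCN KD values lay below both Ctrl values in 6 of the 10 genes, against 35.8% of all tested genes, and above them in 3, against 40.4%.

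**Figure D1:**
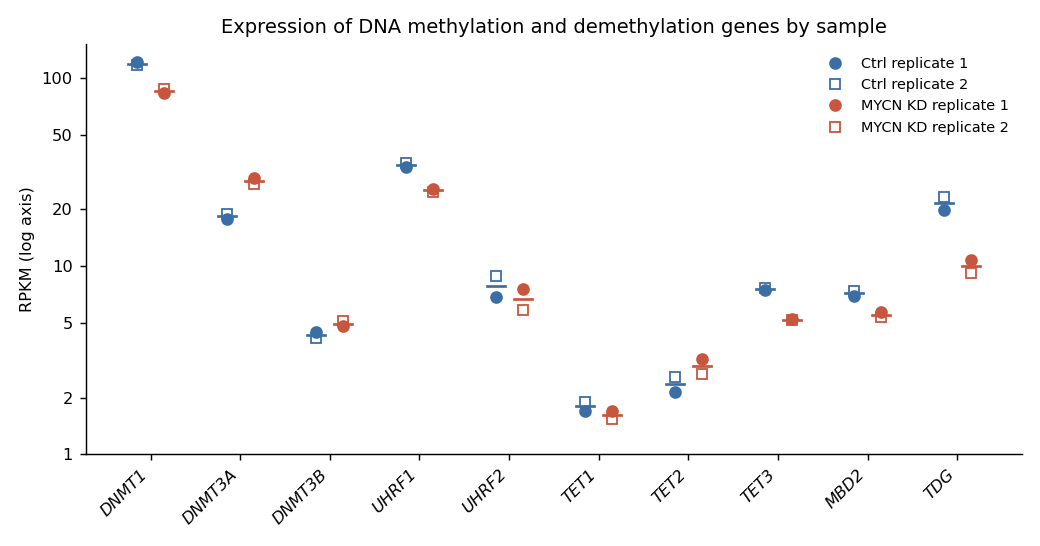
RPKM of the 10 genes on a logarithmic axis, with Ctrl in blue and MYCN KD in red, 1 symbol per sample and a line at each group mean (n = 2). DNMT1 stands above the others in every sample, TDG drops from 19.9 and 23.4 to 10.8 and 9.22 RPKM, and DNMT3A moves up.

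Promoter sequences are shown for the members in which a word bound by MYC proteins or by E2F factors lay near an annotated start, because both factor families are known to act at genes of growing cells. The windows run from 250 bases before to 50 bases after a RefSeq transcript start (RefSeq, GRCh38.p14 table), and all 21 windows of the 10 genes matched 1 place each on GRCh37, whose coordinates are given. Capitals mark the E-box CACGTG in TDG, TET3, TET2 and DNMT3A, and an E2F word (TTTCCCGC, TTTGGCGC or TTTCGCGC, on either strand) in DNMT1 and UHRF1.
TDG, chr12:104359400-104359699, plus strand: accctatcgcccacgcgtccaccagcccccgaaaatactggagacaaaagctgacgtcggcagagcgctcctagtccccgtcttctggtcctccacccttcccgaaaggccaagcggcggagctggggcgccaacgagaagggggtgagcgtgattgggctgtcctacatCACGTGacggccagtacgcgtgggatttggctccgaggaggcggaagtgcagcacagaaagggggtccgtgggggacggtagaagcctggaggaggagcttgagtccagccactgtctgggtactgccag
TET3, chr2:74211787-74212086, plus strand: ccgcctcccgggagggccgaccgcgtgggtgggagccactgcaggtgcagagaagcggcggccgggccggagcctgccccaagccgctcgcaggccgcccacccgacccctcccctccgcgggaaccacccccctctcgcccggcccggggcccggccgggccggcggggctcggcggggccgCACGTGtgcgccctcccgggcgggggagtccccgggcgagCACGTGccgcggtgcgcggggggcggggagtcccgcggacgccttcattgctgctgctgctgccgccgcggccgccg
TET2, chr4:106066782-106067081, plus strand: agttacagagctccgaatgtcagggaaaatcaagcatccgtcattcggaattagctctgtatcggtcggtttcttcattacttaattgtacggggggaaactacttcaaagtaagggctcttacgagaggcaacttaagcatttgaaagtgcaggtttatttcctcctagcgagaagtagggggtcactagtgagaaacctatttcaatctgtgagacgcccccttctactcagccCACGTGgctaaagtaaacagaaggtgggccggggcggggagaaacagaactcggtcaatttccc
DNMT3A, chr2:25475135-25475434, minus strand: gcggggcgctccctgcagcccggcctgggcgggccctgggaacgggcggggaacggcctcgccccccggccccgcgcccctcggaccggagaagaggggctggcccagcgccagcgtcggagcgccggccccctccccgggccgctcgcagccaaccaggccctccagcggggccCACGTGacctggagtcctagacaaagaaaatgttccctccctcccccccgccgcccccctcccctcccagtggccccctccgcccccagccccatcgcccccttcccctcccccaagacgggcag
DNMT1, chr19:10305580-10305879, minus strand: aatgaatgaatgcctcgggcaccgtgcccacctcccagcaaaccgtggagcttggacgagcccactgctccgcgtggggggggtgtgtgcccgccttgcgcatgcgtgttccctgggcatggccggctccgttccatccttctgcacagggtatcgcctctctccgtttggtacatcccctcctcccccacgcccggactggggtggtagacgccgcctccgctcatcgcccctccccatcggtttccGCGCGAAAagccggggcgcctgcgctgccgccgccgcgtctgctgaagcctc
UHRF1, chr19:4909263-4909562, plus strand: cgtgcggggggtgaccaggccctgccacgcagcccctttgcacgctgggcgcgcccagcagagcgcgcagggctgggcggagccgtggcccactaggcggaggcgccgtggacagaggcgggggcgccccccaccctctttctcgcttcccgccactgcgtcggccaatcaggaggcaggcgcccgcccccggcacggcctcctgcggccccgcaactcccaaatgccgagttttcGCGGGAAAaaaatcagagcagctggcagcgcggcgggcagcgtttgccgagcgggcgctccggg

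Distances are to the first base of a word along the gene's strand. The E-box lay 80 bases before the start in TDG, at 67 and 27 bases before it in TET3 and 75 bases before this internal start in DNMT3A. TET2 also held it 14 bases before its start. Thus 4 of 10 genes had an E-box in at least 1 window, and their changes differed: TDG and TET3 fell, DNMT3A rose and TET2 was not called. Among the 8489 tested genes with a promoter entry 13.2% held the E-box, as did 8.77% of all 27305 genes with an entry. The E2F word of DNMT1 began 2 bases before the start and ran across it, and that of UHRF1 began 14 bases before the start, with a further one 160 bases before another UHRF1 start. Both genes fell. This word was found in 5.84% of the tested genes and in 3.3% of all genes with an entry. A gene with several windows has more chances of a match, no window of the 10 genes held both words, and gene-level RPKM does not tell which start was used. CpG counts of the windows ran from 3, in DNMT3B, to 46, against a median of 26 for windows of tested genes and 14 for all windows. The only DNMT3B window, chr20:31367408-31367707, lies inside the gene. The annotated DNMT3B gene start at 31350191 had no window, so its CpG count and words are not known here.

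DNMT1, the maintenance methyltransferase, was the most abundant of the 10 genes. Control cells had 121.8 and 116.7 RPKM, and knockdown cells 83.2 and 86.9 RPKM. Both knockdown samples were below both controls, and the replicates of each group lay close together. DNMT1 fell by 28.7% on the RPKM scale, a log2 change of -0.48 ± 0.044 (SE, 95% interval -0.61 to -0.35, adjusted p = 0.00663, limma). The gene spans chr19:10244018-10341962 on the minus strand of GRCh37 and has 41 exons in its main transcript. Its annotated exons share 83 bases with those of S1PR2 on the same strand, a gene that reached at most 9.37 RPKM. Exons of TET3 and TDG share 390 and 168 bases with non-coding RNA genes on the same strand that are not among the listed genes, and the reads of these stretches cannot be assigned.

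UHRF1 is the protein that recognises hemimethylated CpG sites and brings DNMT1 to them. The control samples had 33.7 and 35.3 RPKM, the knockdown samples 25.8 and 24.7 RPKM. The groups did not overlap, and UHRF1 fell by 26.9%, a log2 change of -0.44 ± 0.047 (SE, adjusted p = 0.00841, limma), close in size to that of DNMT1. UHRF1 lies on the plus strand at chr19:4903092-4962165 and has 18 exons.

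UHRF2 resembles UHRF1 in its domains but is not known to take its place in maintenance. Here the replicates were wide apart, with 6.83 and 8.81 RPKM for the controls and 7.51 and 5.87 RPKM for the knockdown. The groups overlapped, with MYCN KD replicate 1 between both Ctrl samples. The log2 change was -0.20 ± 0.17 (SE, 95% interval -0.71 to 0.32, adjusted p = 0.404, limma). Without Ctrl replicate 1 the change was -0.36 (adjusted p = 0.0376, limma), and without MYCN KD replicate 1 it was -0.35 (adjusted p = 0.0512, limma). UHRF2 lies at chr9:6413151-6507054 on the plus strand, with 16 exons. The UHRF1 to UHRF2 ratio was 4.94 and 4.01 in controls against 3.44 and 4.21 in the knockdown, and these overlapped (exact permutation test, two-sided p = 0.667, where 0.333 is the smallest that 2 against 2 samples can give).

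DNMT3A, one of the de novo methyltransferases, was the only one of the 10 genes called higher. Controls had 17.8 and 19.01 RPKM, and knockdown cells had 29.2 and 27.4 RPKM. Both knockdown values were well above both controls, a rise of 53.9% and a log2 change of 0.60 ± 0.058 (SE, 95% interval 0.42 to 0.77, adjusted p = 0.00717, limma). In rank of log2 change it stood 954 from the top of the 11411 tested genes. DNMT3A occupies chr2:25450724-25565459 on the minus strand with 23 exons, and the E-box window printed above lies inside the gene.

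DNMT3B, the other de novo enzyme, was less abundant than DNMT3A in every sample. Levels of 4.45 and 4.15 RPKM were found in Ctrl, compared with 4.78 and 5.12 RPKM in MYCN KD. The knockdown samples were slightly above the controls without overlap, but the log2 change of 0.17 ± 0.058 (SE, 95% interval -0.0055 to 0.34, adjusted p = 0.0932, limma) did not pass the threshold. With all samples scaled to the same total RPKM it was 0.22 and passed (adjusted p = 0.0405, limma). DNMT3B lies at chr20:31350191-31397165 on the plus strand, with 23 exons. The ratio of DNMT3A to DNMT3B was 4.00 and 4.58 in controls against 6.11 and 5.36 in the knockdown, apart in all samples (log2 change 0.42, exact permutation test, two-sided p = 0.333, the smallest possible).

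The make-up of the methyltransferase transcripts thus differed between the groups. Summed over DNMT1, DNMT3A and DNMT3B, RPKM reached 144.1 and 139.8 in the controls but 117.2 and 119.4 in the knockdown. DNMT1 made up 84.5% and 83.4% of this sum in the controls and 71.0% and 72.7% in the knockdown. DNMT3A made up 12.4% and 13.6% of it without knockdown, compared with 24.9% and 23.0% after it. DNMT3B stayed a minor component, at 3.09% and 2.97% against 4.08% and 4.28%. These are shares of transcript level and say nothing of protein or activity.

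**Figure D2:**
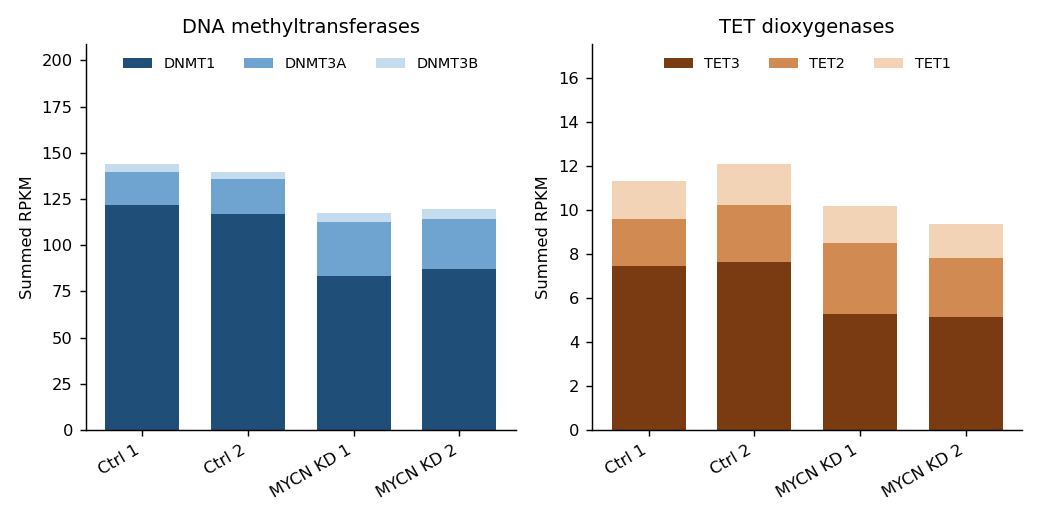
Stacked bars of RPKM in each of the 4 samples, for the 3 DNA methyltransferases on the left and the 3 TET dioxygenases on the right, with separate vertical axes that start at 0. The DNMT1 segment shrinks and the DNMT3A segment grows in both MYCN KD samples, and in the TET bars the TET3 segment shrinks.

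The 3 TET dioxygenases, which start active demethylation, did not move together. TET3 was the most abundant, with 7.44 and 7.61 RPKM in controls against 5.25 and 5.14 RPKM in knockdown cells. The replicates nearly coincided and the groups were clearly apart. TET3 fell by 31.0%, a log2 change of -0.46 ± 0.041 (SE, 95% interval -0.58 to -0.34, adjusted p = 0.00637, limma). It lies on the plus strand at chr2:74212037-74335303, with 12 exons.

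TET2, often mutated in blood cancers, gave 2.14 and 2.59 RPKM in the controls, while the knockdown samples gave 3.22 and 2.68 RPKM. The knockdown values were above the controls, by a margin smaller than the spread within either group. Its log2 change was 0.23 ± 0.11 (SE, 95% interval -0.09 to 0.56, adjusted p = 0.170, limma), and without MYCN KD replicate 2 it was 0.33 (adjusted p = 0.0499, limma). TET2 lies at chr4:106067032-106200973 on the plus strand, with 11 exons, and the antisense gene TET2-AS1 inside it reached at most 0.0429 RPKM.

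TET1, known for its role in embryonic stem cells and the germline, was the least abundant of the 10. It had 1.71 and 1.89 RPKM without knockdown and 1.69 and 1.54 RPKM with it, from 456 to 578 recovered reads per sample. The groups were narrowly apart, and the log2 change was -0.10 ± 0.059 (SE, 95% interval -0.27 to 0.08, adjusted p = 0.255, limma). Under quantile normalization it was -0.22 and passed the threshold (adjusted p = 0.0231, limma). TET1 lies at chr10:70320094-70454244 on the plus strand, with 12 exons.

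Summed TET RPKM came to 11.3 and 12.1 in the controls, and to 10.2 and 9.36 in the knockdown. TET3 accounted for 65.9% and 63.0% of it in the controls and for 51.7% and 55.0% in the knockdown, while TET2 accounted for 18.96% and 21.4% and then for 31.7% and 28.6%. TET1 made up 15.1% and 15.6% in controls against 16.7% and 16.4% in the knockdown. Since both sums were lower in the knockdown, the ratio of summed TET to summed DNMT transcripts overlapped, at 0.0783 and 0.0864 in controls against 0.0867 and 0.0784 in the knockdown (exact permutation test, two-sided p = 0.667). Quantile normalization turned the sign of its log2 change from 0.0025 to -0.15, and leaving out Ctrl replicate 1 or MYCN KD replicate 1 gave -0.069 and -0.070, so it has no direction.

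TDG, which excises the oxidised bases that TET enzymes make as well as thymine from mismatches, showed the largest change of the 10 genes. The controls held 19.9 and 23.4 RPKM, whereas the knockdown samples held 10.8 and 9.22 RPKM. Every knockdown value was far below every control, although the replicates of either group were proportionally wider apart than those of DNMT1. TDG fell by 53.8%, a log2 change of -1.04 ± 0.12 (SE, 95% interval -1.39 to -0.69, adjusted p = 0.00943, limma). It ranked 126 from the lowest of 11411 log2 changes. TDG spans chr12:104359600-104382652 on the plus strand with 10 exons, and carries the E-box printed above.

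MBD2, a protein that binds methylated CpG and recruits the NuRD repressor complex, was found at 6.95 and 7.39 RPKM in controls, as opposed to 5.67 and 5.35 RPKM after knockdown. The groups did not overlap. MBD2 fell by 23.2%, a log2 change of -0.33 ± 0.055 (SE, 95% interval -0.49 to -0.17, adjusted p = 0.0199, limma). This call was the least firm of the 5: it was lost with the replicate number as a block (adjusted p = 0.133, limma), without Ctrl replicate 2 (log2 change -0.29, adjusted p = 0.103) and without MYCN KD replicate 2 (-0.29, adjusted p = 0.113). MBD2 lies at chr18:51677976-51751039 on the minus strand, with 7 exons.

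**Figure D3:**
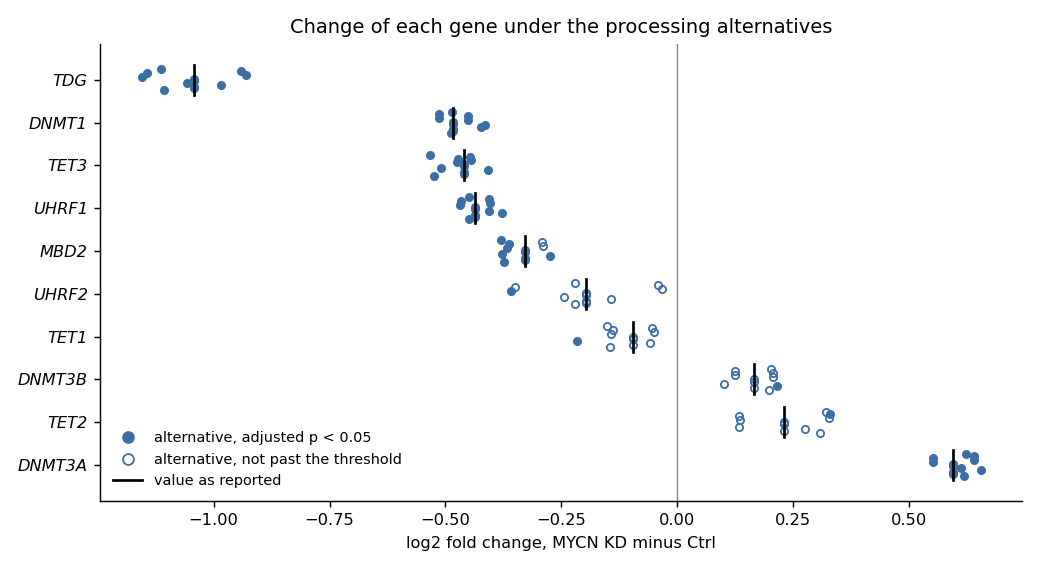
Log2 fold change of each gene under the alternatives other than the crossed block (points, filled where the adjusted p was under 0.05), with a bar at the value as reported. All points of TDG, DNMT1, TET3, UHRF1 and DNMT3A are filled and on 1 side of 0, MBD2 has 3 open points, of which the replicate block lies on the bar, and DNMT3B, UHRF2, TET1 and TET2 have 1 filled point each.

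**Figure D4:**
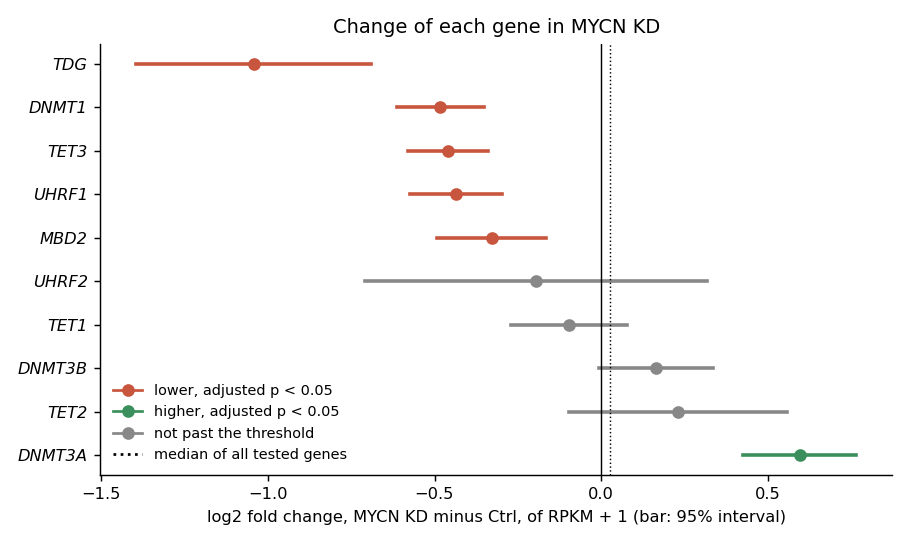
Log2 fold change of each gene (points) with its 95% interval (bars) from limma, in order of size on the log2(RPKM + 1) scale, where TET3 comes after DNMT1 although it fell by 31.0% on the RPKM scale and DNMT1 fell by 28.7%. TDG, DNMT1, TET3, UHRF1 and MBD2 lie below 0, DNMT3A lies above it at 0.60, and the intervals of the other 4 genes include 0.

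In level, the 10 genes ran from DNMT1 through UHRF1, TDG and DNMT3A to UHRF2, TET3, MBD2, DNMT3B, TET2 and TET1 in Ctrl. The Ctrl values of UHRF2 overlapped those of both TET3 and MBD2, so this stretch has no firm order. In MYCN KD the order began with DNMT1, DNMT3A, UHRF1 and TDG: DNMT3A was below UHRF1 in both controls and above it in both knockdown samples. TDG was above DNMT3A in both controls and below it in both knockdown samples. The counting error of the members was between 0.667% and 4.68% of the value, and processed pseudogenes (TDGP1, DNMT3AP1, TET1P1 and UHRF2P1) are annotated for 4 of them. How reads that fit both were counted is not given in the sources used here.

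Related genes were counted in the same way, against 22.8% of all tested genes called lower and 25.3% called higher. Of 10 partners of maintenance methylation, 9 were tested, 6 fell and 0 rose, with a median log2 change of -0.46. The other 3, named after their values were seen, were HELLS (-0.33), LIG1 (-0.02) and SETD7 (0.24). PCNA, the sliding clamp of replication, was at 141.6 and 204.6 RPKM in controls against 89.1 and 62.6 RPKM in the knockdown (log2 change -1.18 ± 0.28 SE, adjusted p = 0.0400, limma). CDCA7L, a relative of the HELLS activator CDCA7, was at 7.31 and 8.47 RPKM against 3.49 and 3.02 RPKM (log2 change -1.06 ± 0.10 SE, adjusted p = 0.00690, limma). The replicates of PCNA differed far more than those of CDCA7L, but neither gene overlapped between the groups.

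DNMT1, UHRF1 and PCNA are known to be transcribed with the genes of S phase. All 20 S phase genes listed were tested, 13 fell and 0 rose, and the median log2 change was -0.43, similar to -0.48 of DNMT1 and -0.44 of UHRF1. CDC6, a loader of the replicative helicase, was at 53.7 and 61.2 RPKM in controls against 35.7 and 31.5 RPKM in the knockdown (log2 change -0.76 ± 0.10 SE, adjusted p = 0.0124, limma). MCM2, a subunit of that helicase, was at 176.7 and 165.7 RPKM against 104.1 and 110.9 RPKM (log2 change -0.67 ± 0.057 SE, adjusted p = 0.00604, limma). The part of S phase in the changes of the methylation genes was not tested, and in bulk RNA fewer cells in S phase and less RNA per cell cannot be told apart.

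Base excision genes that act beside or after TDG, listed together with GADD45A, GADD45B and GADD45G, included genes called in each direction. The GADD45 genes, named after their values were seen, are not base excision enzymes. GADD45A was among those called higher (log2 change 0.22, adjusted p = 0.0418, limma), and GADD45B and GADD45G were not called. Of 17 listed, 16 were tested, 7 fell and 3 rose, against 22.8% and 25.3% of all tested genes, and the median log2 change was -0.34. UNG, the uracil glycosylase, was at 85.3 and 83.6 RPKM in controls against 43.9 and 44.8 RPKM in the knockdown (log2 change -0.92 ± 0.035 SE, adjusted p = 0.00359, limma). NEIL2, a glycosylase for oxidised bases, was at 6.28 and 6.22 RPKM against 3.69 and 3.72 RPKM (log2 change -0.62 ± 0.039 SE, adjusted p = 0.00422, limma). Other glycosylases were higher: SMUG1 went from 10.03 and 10.01 to 12.9 and 12.9 RPKM (log2 change 0.34 ± 0.037 SE, adjusted p = 0.00861, limma), and OGG1 from 7.02 and 6.63 to 8.30 and 8.78 RPKM (log2 change 0.29 ± 0.054 SE, adjusted p = 0.0252, limma). Thus TDG was not alone among the DNA glycosylases in falling, nor did all of them fall.

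S-adenosylmethionine is the methyl donor of the DNMT enzymes. Of 10 genes of its cycle, 7 were tested, 4 fell and 0 rose, with a median log2 change of -0.28. MAT2B, the regulatory subunit of the synthetase, was at 20.9 and 22.1 RPKM in controls against 10.2 and 9.73 RPKM in the knockdown (log2 change -1.03 ± 0.053 SE, adjusted p = 0.00365, limma). AHCY, which clears the inhibitory by-product S-adenosylhomocysteine, was at 330.5 and 322.8 RPKM against 189.2 and 193.9 RPKM (log2 change -0.77 ± 0.034 SE, adjusted p = 0.00359, limma).

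TET enzymes need 2-oxoglutarate and iron. All 13 genes listed for TET regulation and 2-oxoglutarate supply were tested, 3 fell and 2 rose, and the median log2 change was -0.08. IDH3A of the citric acid cycle (31.5 and 34.7 against 25.5 and 23.3 RPKM, log2 change -0.42, adjusted p = 0.0234, limma) and SDHB of succinate dehydrogenase (72.5 and 76.7 against 57.1 and 54.1 RPKM, log2 change -0.42, adjusted p = 0.0108, limma) were lower. D2HGDH, which removes D-2-hydroxyglutarate, and the isocitrate dehydrogenase IDH2 were higher, with log2 changes of 0.22 (adjusted p = 0.0295) and 0.21 (adjusted p = 0.0234) by limma.

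Other methyl-CpG readers were listed together with further relatives of the DNMT enzymes. Of 11 listed, 9 were tested, 0 were called lower and 4 rose, and the median log2 change was 0.08. MBD6, named after its values were seen, was at 22.4 and 20.3 RPKM in controls against 17.0 and 18.8 RPKM in the knockdown (log2 change -0.24, adjusted p = 0.0835, limma). ZBTB4, a zinc finger protein that binds methylated DNA and represses transcription, was at 5.70 and 5.69 RPKM in controls against 14.93 and 14.92 RPKM in the knockdown (log2 change 1.25 ± 0.037 SE, adjusted p = 0.00359, limma), the largest rise of these lists. Its relative ZBTB38 was at 4.02 and 4.54 RPKM against 7.75 and 6.88 RPKM (log2 change 0.66 ± 0.087 SE, adjusted p = 0.0123, limma). Of 13 NuRD subunits, the complex that MBD2 joins, 12 were tested, 4 fell and 2 rose, and the median log2 change was -0.04. RBBP4 (log2 change -0.44, adjusted p = 0.0118) and MTA1 (-0.40, adjusted p = 0.0178) fell most, while the helicase subunits CHD3 (0.18, adjusted p = 0.0261) and CHD4 (0.11, adjusted p = 0.0497) rose slightly, all by limma.

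**Figure D5:**
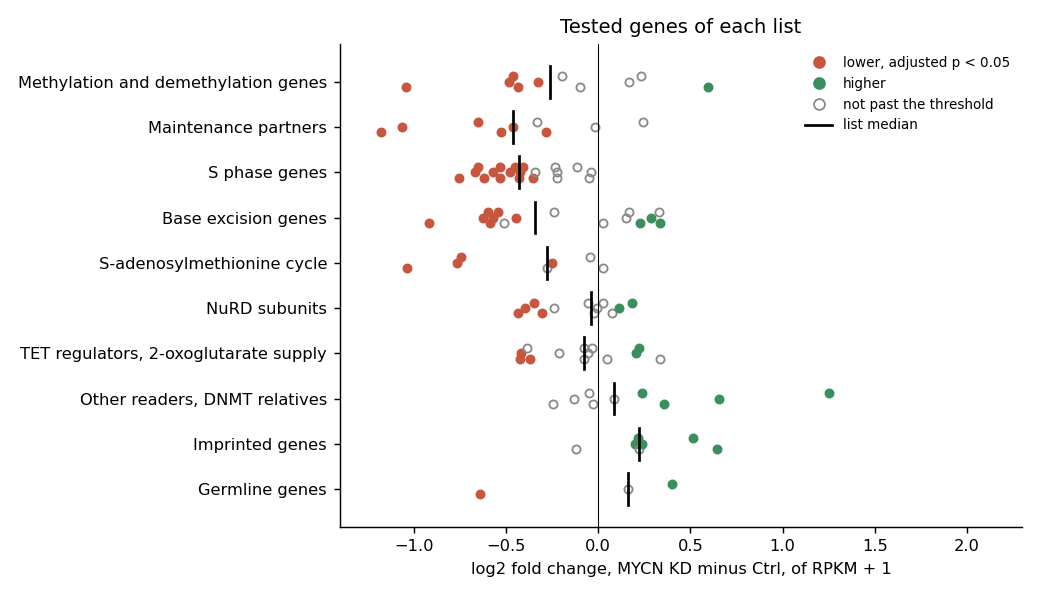
Log2 fold change of every tested gene of the 10 methylation and demethylation genes and of 9 related lists, with filled points for genes past the threshold and a bar at each list median. The medians of maintenance partners (-0.46) and S phase genes (-0.43) lie lowest, and ZBTB4 at 1.25 is the point farthest to the right.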

How the data were processed

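RNA-seq values of 4 BE(2)C samples were analysed, grouped as Ctrl and MYCN KD from the sample labels and the study's methods, with 2 samples each. Alignment by the authors was to hg19 (HISAT2 2.1.0, per the submitters' processing notes), followed by featureCounts on RefSeq genes, DESeq2 modelling and removal of unwanted variation by RUVSeq. The values the authors deposited are RPKM, in 1 file per sample. The RUVSeq variant, its factors and the strand setting of the counting are not given in the sources used here. The removal can narrow or widen the spread between replicates. The siRNA concentration given in the labels differs from the amount in the study's methods.

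From the RPKM, the total of reads of each sample was recovered from small RNA genes, of which 93.5% to 95.5% came out whole within 0.01 reads. With these totals, 100% of the 19908 genes above 0 gave whole reads within 0.005 reads. Except where the annotated length of a small RNA gene fitted, the length of each gene was searched until its values were whole. For genes with reads in few samples such a length was near certain to exist, so the share is no check there. The values had been adjusted before deposit, so the recovered reads may differ from those sequenced. Errors computed from them cover counting noise only. Replicates differed by more than counting noise (mean chi-square per gene 12.8 in Ctrl and 11.4 in MYCN KD). In each file 28 rows have names altered to dates and are not named here.

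limma 3.58.1 in R 4.3.3 (lmFit, eBayes with a trend) was fitted to log2(RPKM + 1) for 11411 genes whose RPKM averaged 1 or more. No block was used, p-values were adjusted over all of these genes by Benjamini-Hochberg, and the threshold was 0.05. Ratios were compared by an exact permutation test over samples. The fit was tested on simulated data, in which the share of unchanged genes among its calls was above the nominal level. Other steps used scipy 1.17.1, pandas 2.3.3, numpy 2.4.6 and matplotlib 3.10.9 under Python 3.11.15. Gene positions came from GENCODE release 44 lifted to GRCh37.

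The 10 genes and the other lists were chosen with earlier results of these data known. All 10 genes were named, and of each other list up to 2 genes that fell and 2 that rose most among those called. Alternatives were another pseudocount, other filters, 2 other scalings, no trend, a replicate block, each sample left out, and limma voom on the recovered reads. A crossed block was added after seeing the data. The study's other assays were not analysed here. The values of 1 gene of the methyl-CpG reader list are not reported here.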

Additional observations from a re-analysis of the deposited data

How the results depend on the processing

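TDG, DNMT1, TET3, UHRF1 and DNMT3A kept direction and call under all 12 alternatives each, as the plot of changes under alternatives shows. Over the 10 genes, 110 of 117 values kept direction and call, 3 lost the call, 4 gained it and 0 turned. The other filters, the fit without trend and the replicate block cannot change a log2 value, so direction was fixed there. Leaving out replicate 1 of either group gave nearly the same change (-0.359 and -0.350 for UHRF2). Leaving out replicate 2 of either group did so too (-0.033 and -0.042), so these fits partly repeat one another. The gains were DNMT3B at the same total RPKM (0.22), TET1 under quantile normalization (-0.22), UHRF2 without Ctrl replicate 1 and TET2 without MYCN KD replicate 2. Leaving out 1 sample in turn gave -0.36 to -0.033 for UHRF2, 0.13 to 0.33 for TET2 and -0.37 to -0.29 for MBD2. It gave 1 to 2 of the 10 genes higher, and 2 were higher at the same total RPKM. The filter at a mean RPKM of at least 5 removed DNMT3B, TET1 and TET2 and left 1868 genes higher against 2890, with fewer genes tested. The log2 change of the summed TET to summed DNMT ratio was -0.15 under quantile normalization and -0.070 to 0.075 with 1 sample left out. The cause of these shifts was not tested.

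Samples that share a replicate number deviated from their group means in opposite directions (r = -0.98 across genes), so the numbers were not taken as a pairing. Ctrl replicate 1 and MYCN KD replicate 2 deviated together (r = 0.98). With 2 samples a group the other pairs mirror these, so they add no further observation. The source of this shared deviation was not tested. With the replicate block, 1851 genes were lower and 2077 higher, 4 of the 10 genes were lower and 1 higher, and MBD2 (-0.33, adjusted p = 0.133, limma) lost its call. A crossed block, chosen after seeing the data, gave 5262 lower and 5910 higher, with 7 and 3 of the 10 genes. limma voom on the recovered reads called 2579 lower and 2917 higher.

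With 2 samples a group, the spread of each gene rests on few values of its own and on what limma borrows from other genes. Fits with 1 sample left out have fewer values per gene and lean more on this borrowing. A sample left alone in its group was assumed to vary like the other group. Depth limits TET1 most, with 456 to 578 recovered reads.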

Other observations

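Imprinted genes are those whose parental expression depends on DNA methylation. Of 16 listed, 7 were tested, 0 fell and 5 rose, against 22.8% of all tested genes lower and 25.3% higher, with a median log2 change of 0.22 against 0.03 for all tested genes. The other 9 were under the filter, among them H19, named after its values were seen, at 0.361 and 0.301 RPKM in controls against 0.239 and 0.274 RPKM in the knockdown. MEG3, a maternally expressed non-coding RNA, was at 18.8 and 23.0 RPKM in controls against 36.4 and 29.997 RPKM in the knockdown (log2 change 0.64 ± 0.15 SE, adjusted p = 0.0393, limma). IGF2, a paternally expressed growth factor, was at 22.2 and 22.4 RPKM against 32.5 and 32.2 RPKM (log2 change 0.52 ± 0.034 SE, adjusted p = 0.00440, limma). RPKM does not separate the parental copies.

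Germline and cancer-testis genes, which promoter methylation is known to silence in most tissues, were mostly under the filter. Of 21 listed, 9 were listed at 0 in all samples and 3 passed the filter. A listed 0 does not by itself show silencing, since how reads that fit several genes were counted is not given. TDRD1, a piRNA pathway gene, fell from 10.3 and 11.99 RPKM to 7.27 and 6.29 RPKM (log2 change -0.64 ± 0.11 SE, adjusted p = 0.0203, limma). MAGEB2 rose from 1.20 and 1.14 to 1.84 and 1.90 RPKM (log2 change 0.40 ± 0.040 SE, adjusted p = 0.00736, limma), and SSX1, named after its values were seen, was at 1.06 and 0.904 RPKM against 1.12 and 1.31 RPKM (adjusted p = 0.151, limma).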
